A study of Mus musculus with 12 samples.

Results

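The acute phase proteins are secreted proteins whose synthesis changes during inflammation or injury, and hepcidin, the hormone that limits the entry of iron into plasma, responds to some of the same signals. A group of 10 of their genes was followed here in newborn mice that lack *Man1a2*, an enzyme of the Golgi apparatus that trims mannose from the N-linked glycans of proteins on their way out of the cell. The members, chosen by gene symbol from the 24421 genes listed for every library, were *Saa1*, *Saa2*, *Saa3*, *Hp*, *Orm1*, *Orm2*, *Lcn2*, *Apcs*, *Itih4* and *Hamp*. RNA was sequenced from the livers and lungs of newborn wild type (WT, *Man1a2*+/+) and null (*Man1a2*-/-) pups, in 4 groups of 3 libraries. The pups came from crosses of *Man1a2*+/- mice with the allele *Man1a2*tm1.1Ahe, which lacks exon 2, and no other allele or agent was named for any group. Tissue was taken 30 to 60 minutes after birth. The allele is a germline deletion, and its lethal effect on the lung means that a null liver came from a newborn with failing lungs, so that effects within the liver and effects from outside it cannot be told apart.

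The libraries held 26759463 to 42914295 counted reads, in which 3 reads of a gene amount to 0.0699 to 0.112 CPM (reads per 1000000 counted). This floor allows for counting error alone. *Man1a2* itself was at 40.7 to 67.5 CPM in WT livers and 36.8 to 40.4 CPM in null livers, and at 99.5 to 141 CPM in WT lungs and 56.7 to 66.3 CPM in null lungs. These counts are of the whole gene and include the exons that the null allele keeps. Livers expressed the hepatocyte markers at a summed 33100 to 55700 CPM. The library labelled null lung 1 went in part against its label. In it, 6 markers of lung epithelium summed to 389 CPM, against 24900 to 33900 CPM in the other lungs. *Sftpc*, the surfactant gene of alveolar type 2 cells, was at 35.3 CPM against 15700 to 22500 CPM. *Scgb1a1*, another of the 6, was at 251 CPM, against 1980 to 2810 CPM in the other lungs and at most 4.4 CPM in livers. The library's log2 CPM correlated with those of the other lungs at 0.815 to 0.833 and with those of the livers at 0.391 to 0.503. The cause was not tested. The lung tests by edgeR are therefore given with and without it, while the counts of non-overlap and the DESeq2 calls in lung include it.

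In inflammation, interleukin 6 (IL-6) acts on hepatocytes through JAK kinases and the transcription factor STAT3, while interleukin 1 acts through NF-κB and C/EBP factors, and together they drive the genes of serum amyloid A, haptoglobin and orosomucoid. Hepcidin answers IL-6 through STAT3 as well, but its everyday control runs through bone morphogenetic proteins (BMP) and SMAD factors, which report the iron load of the liver. The same proteins also have sources outside the liver: lipocalin 2 fills granules of neutrophils, and *Saa3* and *Lcn2* are made by epithelia and macrophages.

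The DNA just before the start sites is shown for hepcidin, which varied most among the null livers, and for the 3 serum amyloid A genes, which lie within a short stretch of chromosome 7. The sequences are from RefSeq on GRCm38.p6, whose table held 8 of the 10 members (*Hp* and *Orm1* were not matched), and run 5′ to 3′ on the strand of the gene, up to where the GENCODE M21 gene begins. Capitals mark matches, on either strand, to TTCNNNGAA (STAT), TTGCNNAA (C/EBP) and GGCGCC (the core of the BMP response element), none of which overlap here. *Hamp* at chr7:30944033-30944279 is on the minus strand, *Saa1* at chr7:46742981-46743230 on the minus strand, *Saa2* at chr7:46751583-46751789 on the plus strand and *Saa3* at chr7:46715701-46715926 on the minus strand.
Hamp: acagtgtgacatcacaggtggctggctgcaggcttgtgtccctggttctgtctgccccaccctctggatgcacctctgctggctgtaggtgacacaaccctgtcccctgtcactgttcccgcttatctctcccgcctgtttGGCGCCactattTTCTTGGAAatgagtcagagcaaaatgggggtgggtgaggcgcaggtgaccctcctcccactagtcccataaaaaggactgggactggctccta
Saa1: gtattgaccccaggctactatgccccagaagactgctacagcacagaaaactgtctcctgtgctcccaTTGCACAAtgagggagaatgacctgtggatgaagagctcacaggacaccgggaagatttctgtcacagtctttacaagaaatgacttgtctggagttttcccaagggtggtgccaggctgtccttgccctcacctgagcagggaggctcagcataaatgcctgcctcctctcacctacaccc
Saa2: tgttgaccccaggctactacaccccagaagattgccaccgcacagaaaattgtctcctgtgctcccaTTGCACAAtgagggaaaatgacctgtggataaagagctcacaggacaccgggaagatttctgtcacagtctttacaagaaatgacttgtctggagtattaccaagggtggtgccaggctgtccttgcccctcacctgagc
Saa3: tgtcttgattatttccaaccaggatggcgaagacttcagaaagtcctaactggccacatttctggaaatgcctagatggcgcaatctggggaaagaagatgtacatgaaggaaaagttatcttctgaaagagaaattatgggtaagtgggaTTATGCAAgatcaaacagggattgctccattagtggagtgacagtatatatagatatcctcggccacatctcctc

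Within the 250 bases before the RefSeq start, *Hamp* had 1 match to the STAT letters, beginning 97 bases before the start, and 1 match to the BMP response element, beginning 109 bases before it. *Saa1* and *Saa2* carried the same C/EBP match, TTGCACAA, at 182 and 183 bases, and the windows of both genes were identical at 95.6% of 249 aligned bases. *Saa3*, whose window was identical to that of *Saa1* at 75.1% of 205 aligned bases, had its C/EBP match at 99 bases, written here as TTATGCAA because it was read on the other strand. Among all 8 windows, 5 held the C/EBP letters (*Saa1*, *Saa2*, *Saa3*, *Orm2* and *Lcn2*), where 9.55% of 27025 promoters did. The STAT letters stood in 3 (*Hamp*, *Itih4* and *Apcs*), where 7.18% of promoters held them, and the BMP response element in 1, where 9.54% did. A match is only a run of letters and was not tested as a binding site.

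In liver, no member was called between null and WT. A gene was called where edgeR's quasi-likelihood test gave a Benjamini-Hochberg adjusted p under 0.05 over all genes tested and a change of at least 1.2-fold. Of the 10 members, 8 had enough reads to be tested, 0 were called and 2 (*Saa3* and *Itih4*) had an unadjusted p under 0.05, while 26.9% of the 14343 genes tested in liver were called. Such shares of all genes are of calls in either direction, here and throughout. They give no share for a single direction, so a shared direction within a list cannot be weighed against them. DESeq2 called those 2, both higher in null. The share of all genes that DESeq2 called is not given here. The members' median log2 fold change was 0.123, and that of all genes tested was 0.0221. The groups of 3 livers did not overlap for 3 of the 8 members, with *Saa3* and *Itih4* above and *Hp* below WT, where 46.6% of all genes tested had no overlap.

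**Figure D1:**
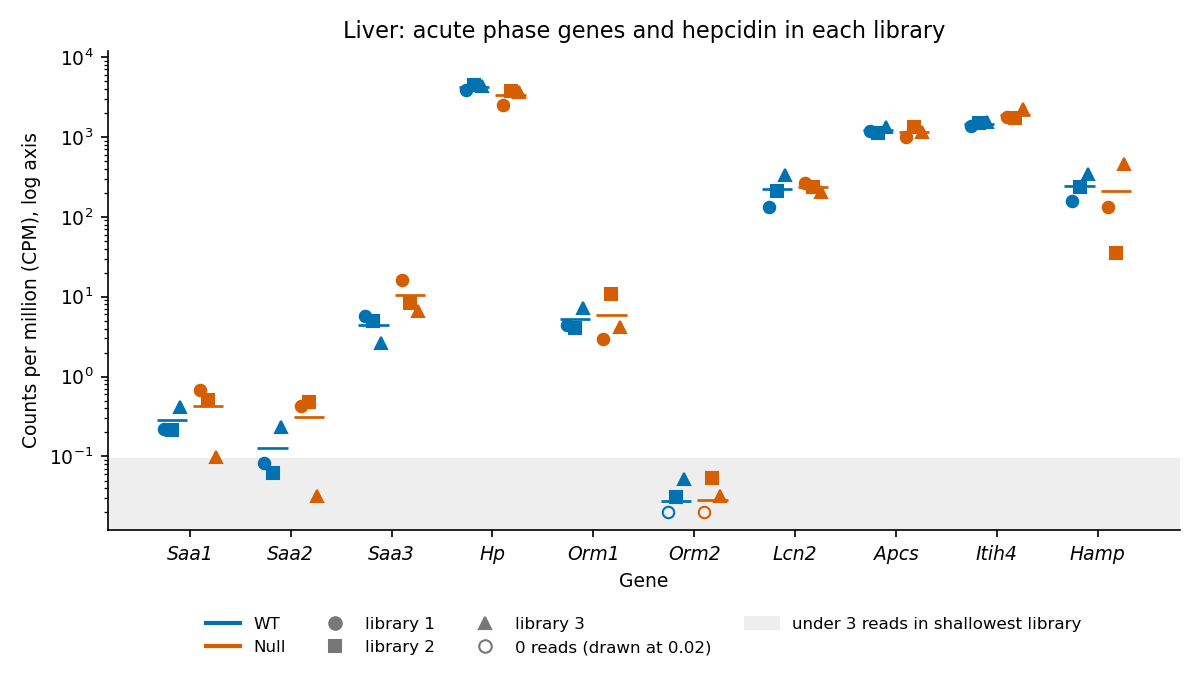
CPM (log axis) of each member in the 3 WT and 3 null livers, with marker shape giving the library number, a line at the group mean, open circles for 0 reads and grey for levels under 3 reads in the shallowest library. Null livers lie wholly above WT for *Saa3* and *Itih4* and wholly below for *Hp*, *Saa1*, *Saa2* and *Orm2* sit near the floor, and *Hamp* runs from 35.2 to 462 CPM among null livers.

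Serum amyloid A proteins travel on high density lipoprotein and are the steepest risers of the acute phase in adult liver. At birth *Saa1* (chr7:46740497-46742980, minus strand) was hardly transcribed in liver, with 8, 7 and 16 reads in WT libraries 1, 2 and 3 and 24, 19 and 3 reads in null libraries 1, 2 and 3. WT averaged 0.285 ± 0.116 CPM and null 0.428 ± 0.300 CPM (mean ± SD of 3 livers, here and throughout), for a log2 fold change of 0.59 (SE 0.63, adjusted p = 0.515), so the groups overlapped and null liver 3 was the lowest of all 6. *Saa2* (chr7:46751790-46754313, plus strand) had 3, 2 and 9 reads in WT and 15, 18 and 1 in null livers, too few to enter the test. Null livers 1 and 2 were above every WT liver for both genes, and null liver 3 was below every WT liver. The transcripts of *Saa1* and *Saa2* were identical at 94.4% of 606 aligned bases, but 4.67% of the 75-base words of *Saa1* occurred in *Saa2*, so the reads of the pair could in part have been assigned to either.

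*Saa3* (chr7:46711998-46715700, minus strand) is the serum amyloid A of macrophages, fat and epithelia. Its WT livers were at 5.70, 5.02 and 2.67 CPM and its null livers at 16.2, 8.30 and 6.64 CPM, so that every null liver was above every WT liver. The means were 4.46 ± 1.59 and 10.4 ± 5.10 CPM, a log2 fold change of 1.22 (SE 0.40, adjusted p = 0.0564 from edgeR), just short of a call. DESeq2 gave an adjusted p of 0.00708 for it, and edgeR without null liver 3 an adjusted p of 0.0414 (log2 fold change 1.46). No other fit with a liver left out called it. The lowest log2 fold change among those fits was 0.75, without null liver 1 (edgeR adjusted p = 0.11). Over all genes, log2 CPM of null liver 1 correlated with the other livers at 0.912 to 0.947, and null livers 2 and 3 with each other at 0.978. Macrophage and Kupffer cell markers summed to 736 to 791 CPM in WT and 729 to 917 CPM in null livers, and none was at 0. Of these 10 markers, 1 was called (*Adgre1*, higher), while 26.9% of all genes tested were called. The part of these cells in the *Saa3* levels was not tested.

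Haptoglobin, which binds free haemoglobin in plasma, was the most abundant member in liver. *Hp* (chr8:109575128-109579172, minus strand) was at 3850, 4470 and 4390 CPM in WT and 2520, 3790 and 3700 CPM in null livers. All null livers were below all WT livers, null liver 1 by the widest margin. The log2 fold change was −0.35 (SE 0.17, adjusted p = 0.168) and lay between −0.47 and −0.18 with each liver left out. Per kb of transcript, *Hp* averaged 3150 CPM in WT and 2480 CPM in null livers, against 246 and 256 for *Lcn2*, 6.77 and 7.70 for *Orm1* and 2.03 and 4.72 for *Saa3*.

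Orosomucoids are plasma carriers of small lipophilic molecules. *Orm1* (chr4:63344560-63348163, plus strand) was at 4.39, 4.06 and 7.28 CPM in WT and 2.92, 10.8 and 4.15 CPM in null livers. Null liver 2 was the highest and null liver 1 the lowest of all 6, and the log2 fold change of 0.19 (SE 0.48, adjusted p = 0.795) was within the spread. Its neighbour *Orm2* (chr4:63362449-63365878, plus strand) had 0 to 2 reads in every liver, at or under the floor, so no difference could be detected at this depth. The transcripts of *Orm1* and *Orm2* were identical at 91.0% of their bases, and 13.8% of the 75-base words of *Orm1* were shared, so the counts of both are uncertain.

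Lipocalin 2 takes iron from bacteria by binding their siderophores. *Lcn2* (chr2:32384633-32388252, minus strand) was at 131, 208 and 338 CPM in WT livers and 263, 238 and 202 CPM in null livers. The null livers sat inside the range of WT, and the log2 fold change was 0.06 (SE 0.31, adjusted p = 0.907). Neutrophil markers, which also include granule proteins, summed to 1740, 3430 and 2540 CPM in WT and 3870, 3270 and 2520 CPM in null livers, so the sums overlapped, and none was at 0. Of the 10 markers, 4 were called, all higher in null (*Elane*, *Mpo*, *Mmp8* and *Retnlg*), while 26.9% of all genes tested were called in either direction. The part of neutrophils in the *Lcn2* levels of the livers was not tested. In bulk tissue, more cells of a type and more RNA per cell cannot be told apart.

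The pentraxin serum amyloid P is the classical acute phase pentraxin of mice, and its gene *Apcs* (chr1:172893961-172895041, minus strand) was among the members with the smallest difference between genotypes. It was at 1190, 1130 and 1320 CPM in WT and 991, 1330 and 1160 CPM in null livers, with a log2 fold change of −0.07 (SE 0.14, adjusted p = 0.743). *Itih4* (chr14:30886476-30902353, plus strand) encodes a plasma protein of the inter-alpha-trypsin inhibitor family. WT livers had 1380, 1510 and 1530 CPM and null livers 1760, 1740 and 2210 CPM of it, with no overlap. The log2 fold change was 0.37 (SE 0.13, adjusted p = 0.0731 from edgeR and 0.0256 from DESeq2), and no fit that left out a liver called it.

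Hepcidin blocks the iron exporter ferroportin on gut cells and macrophages. *Hamp* (chr7:30942368-30944032, minus strand) was at 157, 239 and 339 CPM in WT livers and at 134, 35.2 and 462 CPM in null livers. The highest null liver was 13.1 times the lowest, against 2.16 times among WT livers, and null livers 2 and 3 lay outside the WT range on opposite sides. Between means of 245 ± 91.2 and 210 ± 224 CPM, the log2 fold change came to −0.22 (SE 0.77, adjusted p = 0.851), and it ran from −1.53 without null liver 3 to 0.27 without null liver 2. Both extremes rest on many reads, 1318 in null liver 2 and 14262 in null liver 3. *Hamp* is overlapped on the opposite strand by *Gm44662*, and 3.87% of its 75-base words occur in its paralog *Hamp2*, which reached at most 0.367 CPM in any liver.

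The scatter among null livers was then set against that among WT livers, as the standard deviation (SD) of log2 CPM over 3 libraries. *Hamp* had an SD of 1.86 in null and 0.557 in WT livers. *Saa1* followed with 1.21 and 0.459, although counts as low as 3 reads add to both, and *Orm1* with 0.969 and 0.453. *Saa3* was close in both groups, at 0.665 and 0.577. *Hp* (0.329 and 0.117), *Apcs* (0.210 and 0.117) and *Itih4* (0.195 and 0.0819) were tighter, and *Lcn2* alone among the tested members scattered less in null, at 0.192 against 0.683. The SD was larger in null for 7 of 8 tested members, where it was larger in null for 62.0% of all genes tested. The members' median SD was 0.456 in WT and 0.497 in null livers, and that of all genes was 0.158 and 0.199. In WT livers *Hp*, *Apcs* and *Itih4* were under the median of all genes, and the other 5 tested members were above it. No test of the SDs was run with 3 libraries a group.

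**Figure D2:**
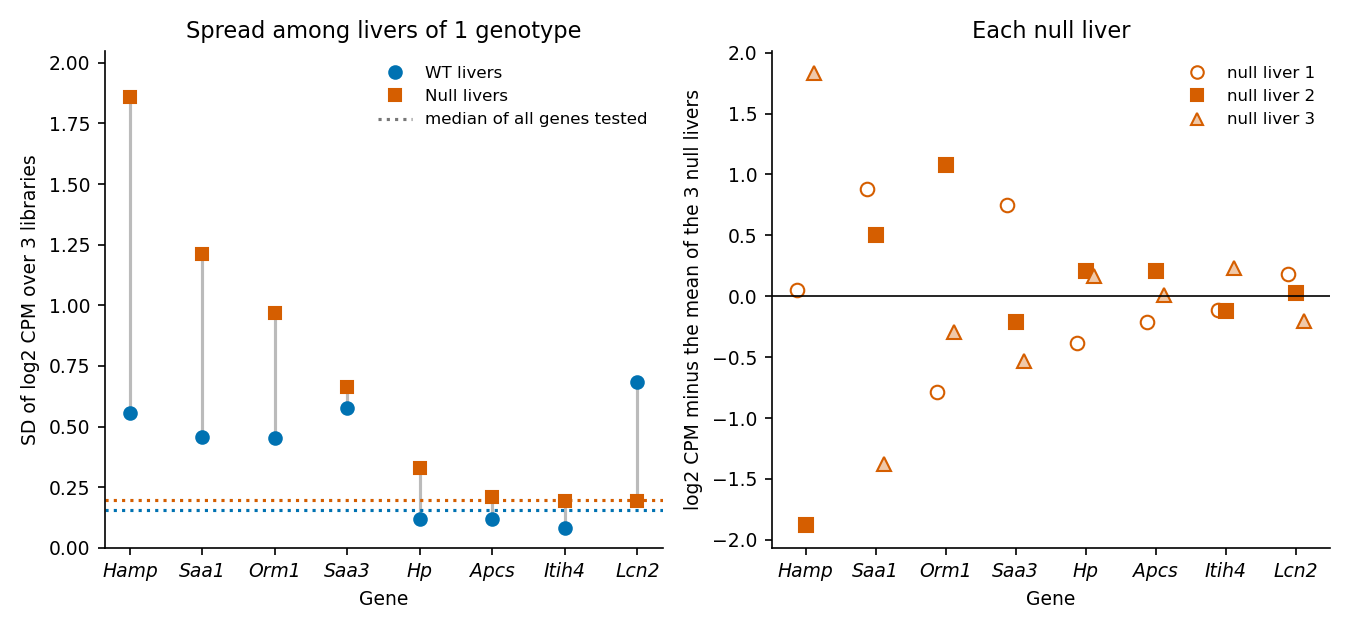
Left, SD of log2 CPM over 3 WT livers (circles) and 3 null livers (squares) for the 8 tested members, with dotted lines at the medians of all genes tested (0.158 and 0.199). Right, each null liver minus the mean of the null livers on the log2 scale; *Hamp* is 1.88 below the mean in null liver 2 and 1.83 above it in null liver 3, and the order of the 3 livers differs between genes.

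No single null liver was high or low for all members. Null liver 3, highest for *Hamp* (1.83 above the mean of the null livers on the log2 scale), was lowest for *Saa1* (1.38 below) and *Saa3* (0.53 below). Null liver 2 was lowest for *Hamp* (1.88 below) and highest for *Orm1* (1.08 above). Null liver 1 was highest for *Saa3* (0.75 above) and *Saa1* (0.88 above) and lowest for *Orm1* (0.79 below) and *Hp* (0.38 below). Hepatocyte markers summed to 36000, 39100 and 55700 CPM in null livers 1, 2 and 3 and to 33100 to 41700 CPM in WT, and red cell precursor markers to 2730, 3230 and 1840 CPM in the null livers and to 1970 to 2530 CPM in WT, with the latter lowest where *Hamp* was highest. The part of these cells in the scatter was not tested.

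The genes most like a member over the 6 livers were looked up among genes averaging 3 log2 CPM or more, as a description without a test. For *Hamp*, the highest Pearson correlations of log2 CPM among 9423 genes were those of *1810011O10Rik* (0.990), *Arhgef3* (0.984), *Nav1* (0.981), *Rps14* (0.958) and *Commd10* (0.957). *1810011O10Rik* ran from 10.3 CPM in null liver 2 to 49.3 CPM in null liver 3, a narrower range than that of hepcidin, and the others spanned less still. For *Saa1* they were *Dhrs3* (0.996), *Ier3ip1* (0.994), *Zfp395* (0.977), *Pram1* (0.972) and *Hcls1* (0.969), over read counts of *Saa1* from 3 to 24. Among the members, *Saa1* correlated with *Saa2* at 0.958, with *Saa3* at 0.356 and with *Hamp* at −0.614. Libraries and scaling are shared by all of these values. Over 6 livers, the highest of 9423 coefficients can be this high for unrelated genes, so the genes named are not read as partners.

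Genes that carry IL-6 and interleukin 1 signals to the acute phase genes were called in null liver at a share near that of all genes. In liver, 6 of the 22 tested among 25 listed were called, all higher in null. That was 27.3%, against 26.9% of all genes in either direction, and the median log2 fold change was 0.452. The largest were *Nfkbia*, the inhibitor that NF-κB itself induces, *Jak2*, *Il6st*, the signalling receptor gp130, and *Lifr*, a partner of gp130. *Nfkbia* rose from 28.3 ± 3.17 to 66.2 ± 5.81 CPM (log2 fold change 1.23, SE 0.12, adjusted p = 0.00211). *Jak2* rose from 52.4 ± 3.29 to 108 ± 3.26 CPM (1.05, SE 0.10, adjusted p = 0.00201). *Il6st* rose from 110 ± 27 to 223 ± 83.4 CPM (1.02, SE 0.29, adjusted p = 0.0359) and *Lifr* from 106 ± 4.43 to 178 ± 17.2 CPM (0.75, SE 0.11, adjusted p = 0.00521). *Il6ra*, the IL-6 receptor, and *Rela*, an NF-κB subunit, were also called. The ligand *Il6* was at 0.0929 to 0.236 CPM in WT and 0.0534 to 0.292 CPM in null livers and was not tested, and *Il1b* was at 1.64, 3.07 and 4.16 CPM in WT against 0.425, 0.107 and 1.43 CPM in null livers (log2 fold change −2.20, SE 0.76, adjusted p = 0.0653). *Socs3*, a direct target of STAT3, was at 13.2, 10.1 and 25.5 CPM in WT and 18.9, 24.1 and 41.2 CPM in null livers (0.78, SE 0.39, adjusted p = 0.172). The count was 3 without WT liver 2 or WT liver 3 and when all 12 libraries were fitted together. Some alternatives also called genes lower in null: DESeq2 and the replicate block each called 7 higher and 2 lower, a minimum of 10 counts in every library 6 higher and 1 lower, and the fit without null liver 3 called 4 higher and 3 lower.

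Among genes that control hepcidin and handle iron, 8 of 31 tested were called in liver, 4 higher and 4 lower (25.8%, against 26.9% of all genes), with a median log2 fold change of 0.121. *Hmox1*, which breaks down haem, fell from 362 ± 81.4 to 130 ± 38.3 CPM (log2 fold change −1.48, SE 0.24, adjusted p = 0.00661). *Slc40a1*, the ferroportin that hepcidin degrades, fell from 336 ± 27.3 to 161 ± 36.8 CPM (−1.06, SE 0.18, adjusted p = 0.00687). The others lower in null were *Slc11a2* and *Acvr1*. *Smad9* (log2 fold change 1.09) and *Smad1* (0.98), which carry BMP signals to the nucleus, rose, as did *Smad4* and the iron regulatory protein *Aco1*. The BMP ligand *Bmp6* was at 2.30 ± 0.538 and 3.42 ± 1.40 CPM (adjusted p = 0.236) and *Id1*, like *Hamp* a target of BMP signals, at 23.1, 19.4 and 20.7 CPM in WT and 21, 18.7 and 26.3 CPM in null livers (log2 fold change 0.06, adjusted p = 0.769). The order of the null livers was the same for *Id1* and *Hamp*, but that of the WT livers was not, and *Id1* spanned a far smaller range. Without WT liver 2 the count was 5, and without WT liver 3 it was 4.

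A further list held other plasma and stress genes linked to the acute phase. Of its 27 tested genes, 7 were called, all higher in null. That was 25.9%, against 26.9% of all genes in either direction, and the median log2 fold change was 0.246. The list includes *Saa4*, a gene of resting plasma, so a call in it need not be of a gene that rises in the acute phase. The metallothionein *Mt2* rose from 178 ± 124 to 1030 ± 466 CPM (log2 fold change 2.53, SE 0.54, adjusted p = 0.0149) and *Mt1* from 419 ± 258 to 1380 ± 505 CPM (1.72, SE 0.48, adjusted p = 0.0351). *Saa4*, the serum amyloid A of resting plasma, rose from 5.73 ± 1.26 to 27.1 ± 4.39 CPM (2.24, SE 0.19, adjusted p = 0.00201), with every null liver at 24.4 CPM or more and every WT liver at 7.18 CPM or less. *Il1rn*, the interleukin 1 receptor antagonist, rose from 12 ± 2.19 to 41.7 ± 29.2 CPM (1.80, SE 0.44, adjusted p = 0.0233), with 75.3 CPM in null liver 3. The others called were *Crp*, *A2m* and *C3*, while the fibrinogen genes, *Lbp*, *Hpx* and *Cp* were not. The count was 2, 3 and 4 without WT livers 1, 2 and 3. Without null liver 3, 6 were called higher and 1 lower. Of 10 plasma genes known to fall in the acute phase, among them *Alb*, *Ttr* and *Apoa1*, 0 were called by edgeR or DESeq2 and 0 had an unadjusted p under 0.05.

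In lung, no member was called with all 6 libraries, and 4 were lower in null once the library labelled null lung 1 was left out. Of the 10 members, 7 were tested in all 6 lungs, 0 were called and 1 (*Orm1*) had an unadjusted p under 0.05, while 0.327% of 15591 genes were called. DESeq2 called 1, *Orm1*. The groups did not overlap for 3 of 7 members, each lower in null (*Saa3*, *Orm1* and *Lcn2*), where 36.1% of all genes tested had no overlap. Without the library labelled null lung 1, 8 members were tested and 4 were called, all lower in null, while 37.0% of 15885 genes were called in either direction.

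**Figure D3:**
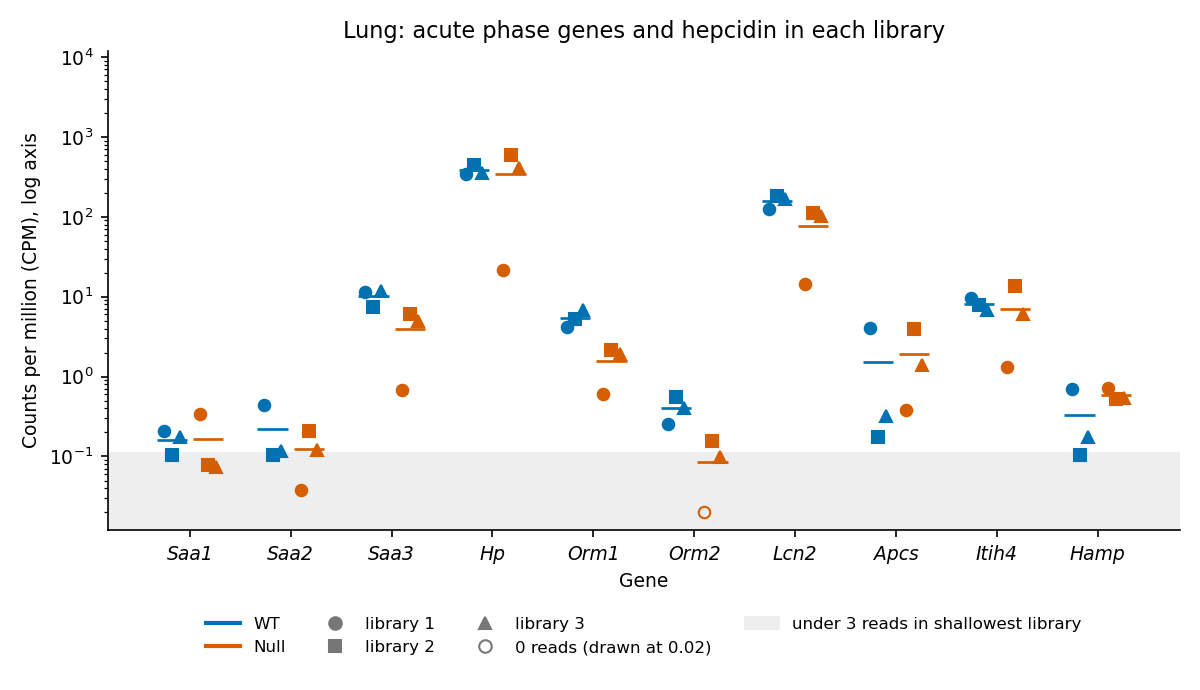
CPM (log axis) of each member in the 3 WT and 3 null lungs, drawn as for liver. The library labelled null lung 1 (circle in the null colour) is the lowest lung for *Saa3*, *Hp*, *Orm1*, *Lcn2* and *Itih4*; null lungs 2 and 3 also lie below all WT lungs for *Saa3*, *Orm1*, *Orm2* and *Lcn2*, but not for *Hp*.

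*Saa3* was at 11.5, 7.52 and 11.7 CPM in WT lungs and 0.682, 6.06 and 4.95 CPM in null lungs. All null lungs were below all WT lungs. The log2 fold change was −1.39 (SE 0.73, adjusted p = 0.284), and without null lung 1 it was −0.90 (SE 0.24, adjusted p = 0.0234). *Orm1* was at 4.12, 5.23 and 6.79 CPM in WT and 0.606, 2.17 and 1.92 CPM in null lungs, again with no overlap. Its log2 fold change was −1.77 (SE 0.52, adjusted p = 0.121) and −1.39 without null lung 1 (SE 0.27, adjusted p = 0.00736). *Orm2* had 11, 16 and 14 reads in WT lungs and 0, 6 and 4 reads in null lungs. It entered the test only without null lung 1, with a log2 fold change of −1.63 (SE 0.54, adjusted p = 0.0488) on these few and partly shared reads.

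*Lcn2* was at 124, 185 and 169 CPM in WT lungs and 14.4, 113 and 103 CPM in null lungs. The log2 fold change was −1.05 (SE 0.70, adjusted p = 0.381), and −0.56 without null lung 1 (SE 0.17, adjusted p = 0.0367). Neutrophil markers summed to 263, 430 and 407 CPM in WT lungs and 259, 713 and 738 CPM in null lungs. Without null lung 1, 6 of 10 were called, all higher in null (*S100a8*, *S100a9*, *Mpo*, *Elane*, *Retnlg* and *Mmp8*). In that fit 37.0% of all genes tested were called in either direction. Neutrophils are known to hold lipocalin 2, and their part in the *Lcn2* levels of the lungs was not tested. The lung epithelial markers summed to 33900 and 25600 CPM in null lungs 2 and 3, and 24900 to 29400 CPM in WT.

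*Hp* was at 345, 445 and 353 CPM in WT lungs and 21.5, 594 and 412 CPM in null lungs. Its log2 fold change was −0.15 (SE 0.97, adjusted p = 0.935) and turned to 0.40 (SE 0.18, adjusted p = 0.115) without null lung 1, so the direction rested on that library. *Itih4* had 9.55, 7.94 and 6.90 CPM in WT and 1.33, 13.7 and 6.04 CPM in null lungs, with log2 fold changes of −0.21 (adjusted p = 0.884) with and 0.28 (adjusted p = 0.535) without it. *Apcs* was at 4.02, 0.173 and 0.319 CPM in WT and 0.379, 3.97 and 1.41 CPM in null lungs (0.34, SE 1.31, adjusted p = 0.891, and 0.78, SE 1.05, adjusted p = 0.590 without null lung 1). *Hamp* had 30, 3 and 6 reads in WT and 19, 20 and 22 in null lungs (log2 fold change 0.81, SE 0.71, adjusted p = 0.501, and 0.61 without null lung 1, adjusted p = 0.512). *Saa1* had 3 to 9 reads in every lung and *Saa2* 1 to 19, at or near the floor.

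The same lists were counted in lung. With all 6 lungs, edgeR called 0 genes in each list. Unadjusted p-values under 0.05 numbered 5 of 25 for the IL-6 and interleukin 1 route, 7 of 31 for hepcidin and iron, 5 of 27 for the other acute phase genes and 0 of 9 for those known to fall, and DESeq2 called 1, 5, 4 and 0. The matching shares of all genes are not given here, so these counts are not read as results about the lists. Without null lung 1, the route had 15 of 25 called (11 higher and 4 lower), hepcidin and iron 15 of 31 (11 higher and 4 lower), the other acute phase genes 7 of 27 (4 higher and 3 lower) and those known to fall 1 of 9 (*Pon1*, higher), against 37.0% of all genes. *Cebpd*, a C/EBP factor of the acute phase, was at 112, 123 and 119 CPM in WT lungs and 107, 233 and 267 CPM in null lungs (log2 fold change 1.09 without null lung 1, SE 0.10, adjusted p = 0.000745). *Nfkbia* went from 101 to 112 CPM in WT to 202 and 233 CPM in null lungs 2 and 3 (1.03, SE 0.10, adjusted p = 0.000897). *Il6ra*, *Jak2*, *Lifr* and *Stat3* also rose in that fit, while *Il1a*, *Lif*, *Tnf* and *Tyk2* fell. These 10 genes were named in lung after their values were seen.

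**Figure D4:**
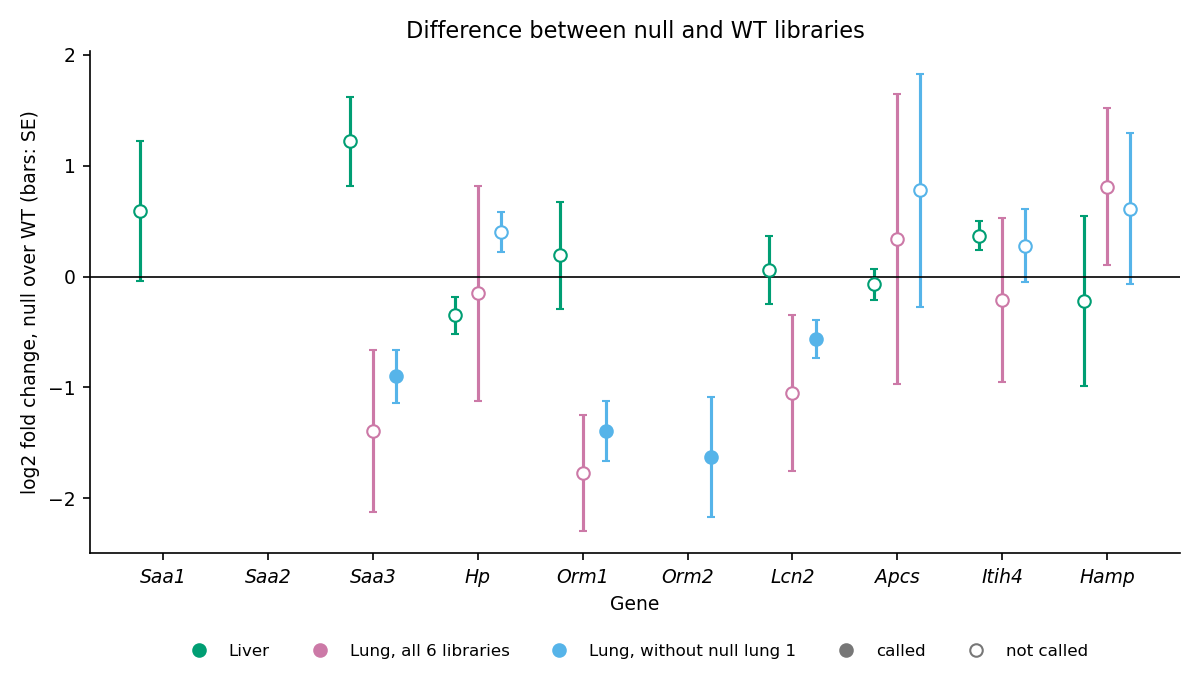
Log2 fold change of null over WT for each member in liver, in all 6 lungs and in lung without the library labelled null lung 1, with SE bars and filled circles for called genes; a missing point was under the count filter. The 4 filled circles (*Saa3*, *Orm1*, *Orm2* and *Lcn2*) all belong to the lung fit without that library and all lie below 0.

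Whether the genotype acted differently in the tissues was tested as an interaction in a fit of all 12 libraries. Of 9 members tested, 0 were called and 2 had an unadjusted p under 0.05 (DESeq2 also called 0), while 0.371% of 16155 genes were called. For *Saa3* the lung effect minus the liver effect was −2.61 (SE 0.91, adjusted p = 0.246), and for *Orm1* −1.95 (SE 0.78, adjusted p = 0.304). Without null lung 1, 10 members were tested and 0 were called, while 5.0% of 16257 genes were, and 3 members had an unadjusted p under 0.05. *Saa3* then stood at −2.09 (SE 0.55, adjusted p = 0.0575) and *Orm1* at −1.56 (SE 0.68, adjusted p = 0.217). The values of *Hamp* (0.98, SE 1.22) and *Apcs* (0.40, SE 1.35) were smaller than their errors.

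Between the tissues of WT pups, most tested members were called, as were most genes. Of 7 tested, 6 were called and all 6 were higher in liver, while 77.0% of 15635 genes were called in either direction. The share of all genes called higher in liver is not given here, so the shared direction is not read as particular to the members. DESeq2 called 6 of 10 members, 5 higher in liver and 1 lower. With all genes of at least 1 count, edgeR called 8, 7 higher and 1 lower. Fits without WT liver 1, 2 or 3 or WT lung 1 each also called 1 lower. *Orm2*, not tested here, had 11, 16 and 14 reads in WT lungs and 0, 1 and 2 in WT livers. On a common scale, *Apcs* averaged 1590 CPM in WT liver and 1.15 CPM in WT lung (log2 fold change 10.37, SE 1.09, adjusted p = 1.75e-05). *Hamp* averaged 321 and 0.250 CPM (10.19, SE 0.53, adjusted p = 1.45e-07) and *Itih4* 1930 and 6.20 CPM (8.29, SE 0.24, adjusted p = 6.56e-09). *Hp* was closer, at 5560 and 290 CPM (4.27, SE 0.24, adjusted p = 2.48e-07), as was *Lcn2* at 296 and 122 CPM (1.3, SE 0.31, adjusted p = 0.00364). *Orm1*, at 6.86 and 4.10 CPM (0.76, SE 0.27, adjusted p = 0.0248), kept its call in only 3 of 6 fits with a WT library left out. *Saa3* was at 5.84 and 7.82 CPM (−0.41, SE 0.28, adjusted p = 0.201), so on this scale the tissues did not differ beyond their spread. The readings of *Saa3* and *Orm1* depend on how the tissues are scaled to each other. With CPM scaled within each tissue, *Saa3* averaged 4.46 CPM in WT liver and 10.3 CPM in WT lung, and *Orm1* 5.24 and 5.38 CPM. The difference on that scale was not tested.

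How far the lung values could be read as those of the lung was described by the reads of each member per 1000 reads of albumin (*Alb*), the leading hepatocyte transcript. *Apcs* had 9.35 to 17.6 reads per 1000 *Alb* reads in the 6 livers and 7.51 to 10.3 in the 6 lungs, nearly the same ratio although *Apcs* itself varied 23.2-fold among WT lungs. Where *Apcs* was high in lung, in WT lung 1 and null lung 2, hepatocyte markers were high too, at 154 and 170 CPM against 13.8 to 55.2 CPM in the other lungs. *Hamp* had 0.400 to 4.51 in liver and 1.29 to 14.6 in lung, ranges that overlap. *Itih4* had 14.2 to 20.3 and 24.3 to 344, *Hp* 25.1 to 58.5 and 435 to 19300, *Lcn2* 1.53 to 4.49 and 280 to 8020, *Saa3* 0.0355 to 0.161 and 13.8 to 327, and *Orm1* 0.0290 to 0.123 and 5.36 to 227. For those 5 genes every lung had more reads per albumin read than any liver. The hepatocyte marker *Apob* had 16.7 to 25.2 in livers, 30.1, 147 and 69.6 in WT lungs and 19.2, 27.5 and 21.1 in null lungs. A higher ratio in WT lung was thus not particular to those 5, while the ranges of *Afp*, *Ttr*, *Fga* and *Crp* overlapped between tissues.

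**Figure D5:**
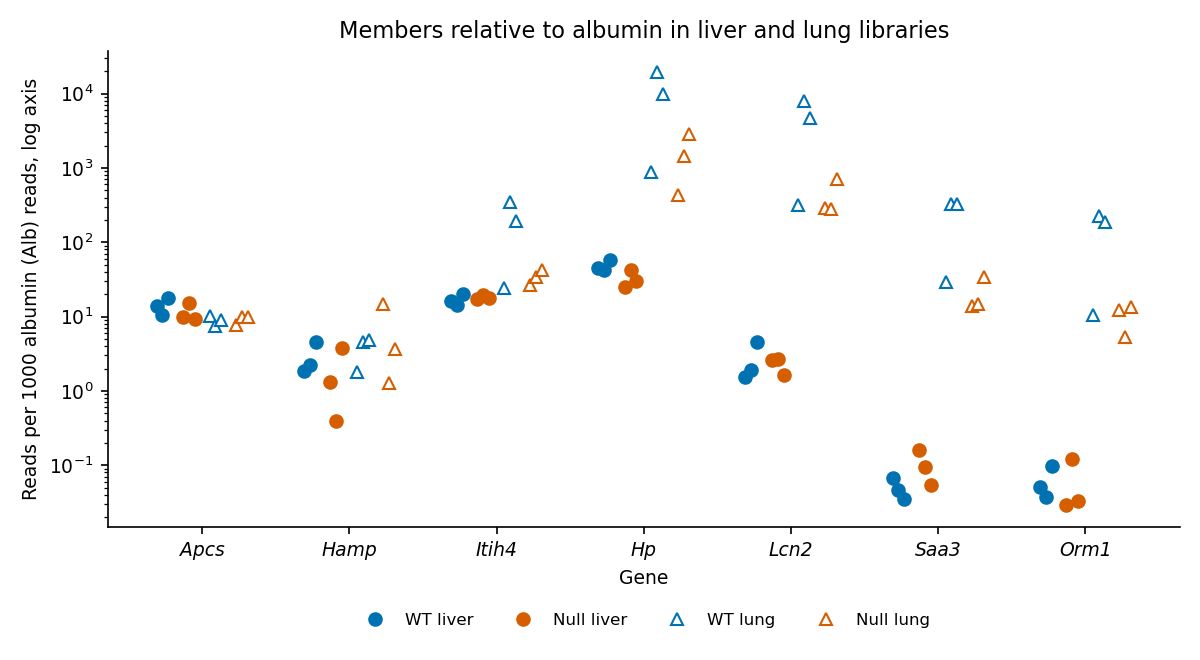
Reads of 7 members per 1000 reads of *Alb* (log axis) in every liver (circles) and lung (triangles), WT and null. *Apcs* has nearly the same ratio in both tissues and the ranges of *Hamp* overlap, while *Itih4*, *Hp*, *Lcn2*, *Saa3* and *Orm1* lie higher in every lung than in any liver.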

How the data were processed

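The authors deposited raw counts, 1 table per library, of reads per gene symbol. Polyadenylated RNA was made into stranded dUTP libraries and read in pairs. The submitters' processing notes name FastQC, STAR 2.5.2a, DESeq2 and mm10; the counting program, annotation and strand setting are not given in the sources used here, so reads of overlapping or near-identical genes could be split. The 27 gene names that had become dates were kept in the fits unnamed.

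edgeR 4.0.16 (R 4.3.3) was run on the counts: filterByExpr, TMM scaling, the quasi-likelihood test and Benjamini-Hochberg adjustment, each tissue apart, with the interaction over 12 libraries. SE is the log2 fold change over the root of F. CPM is TMM-scaled within a tissue, and log2 CPM uses a prior count of 2. DESeq2 1.42.0 was an alternative. Positions and transcript lengths (the longest coding transcript) are from GENCODE M21 on GRCm38. Tests were tried on simulated counts with seeded changes larger than any member's in liver. That trial therefore says nothing about the power to detect the members' smaller changes.

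Depth was 26759463 to 42914295 reads. No 2 libraries were copies. Samples were grouped by their labels, and p-values cover the spread between these libraries. With 3 against 3, an exact permutation test of a single gene cannot go below p = 0.1. Liver and lung libraries of 1 genotype and number deviated together (correlations 0.200 to 0.362), so the number may pair them. The labels do not say that 1 pup gave both. The main fits across tissues leave such a pairing out. A block for it changed no member's call between tissues. Members and lists were chosen with earlier results of these data known. Named were all members, up to 4 called genes with the largest change per list and tissue among those averaging 1 log2 CPM or more, the 5 genes most like *Saa1* and *Hamp*, and markers; *Crp*, *A2m*, *C3*, *Il6*, *Il1b*, *Socs3*, *Id1*, *Bmp6* and the further list genes were named after their values were seen.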

Additional observations from a re-analysis of the deposited data

Results flagged for a closer look

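Fitted effects of opposite sign in liver and lung occurred for several members, but for *Saa3* every library followed them: all 3 null livers were above the WT mean (6.64 to 16.2 CPM against 4.46) and all 3 null lungs below it (0.682 to 6.06 CPM against 10.3). The lung effect minus the liver effect was −2.61 on the log2 scale (SE 0.91), with an unadjusted p of 0.0158 and an adjusted p of 0.246 from edgeR's interaction test, so the difference did not pass the correction. Leaving out 1 library at a time gave values from −3.06 to −2.09.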

How the results depend on the processing

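In liver, members called numbered 0, with 2 under DESeq2 (*Saa3* and *Itih4*), 1 with the replicate block (*Saa3*, adjusted p = 0.0169) and 0 to 1 with a liver left out. WT and null libraries of 1 number share only that number (same-number correlations −0.129 to 0.156). With a liver left out, the IL-6 and interleukin 1 route had 3 to 7 called, hepcidin and iron 4 to 10, and the other acute phase genes 2 to 9; the route had 3 with all 12 libraries in 1 fit. In lung, members called numbered 1 under DESeq2 (*Orm1*) and 0 to 4 with a lung left out, where the 4 came without null lung 1. The route had 1 under DESeq2, 3 with all 12 libraries and 0 to 15 with a lung left out. Hepcidin and iron had 5, 5 and 0 to 15. The other acute phase genes had 4 under DESeq2, 1 with at least 10 counts in every library, 1 with all 12 libraries and 0 to 7, and the genes known to fall 0 to 1. The cause was not tested, beyond the smaller number of libraries. Shares of all genes called are given here only for the main edgeR fits and those without null lung 1. The other counts therefore describe how calls move between fits and are not read as results about the members or lists.

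Directions reversed for members that were not called. With the replicate block, *Orm1* in liver was −0.01 and the difference between tissues for *Hp* −0.58. With 1 library left out, values in liver ran from −0.59 (without null liver 2) to 0.52 for *Orm1*, −0.22 (without WT liver 1) to 0.47 for *Lcn2*, −1.53 to 0.27 for *Hamp* and −0.19 to 0.04 (without null liver 1) for *Apcs*. *Hamp* was also positive without WT liver 3 (0.09) and null liver 1 (0.02), and *Lcn2* negative without null liver 1 (−0.03). In lung they ran from −0.81 to 0.40 for *Hp* and −1.13 to 0.28 for *Itih4*, both positive only without null lung 1, and from −0.74 to 2.94 for *Apcs*, which was also negative without WT lung 2 (−0.18) and WT lung 3 (−0.13). Differences between tissues ran from −0.47 to 0.77 for *Hp* and from −0.68 to 3.03 for *Apcs*, with −0.09 and −0.05 without WT lungs 2 and 3. Under the other alternatives 432 member values kept direction and side of the threshold, 8 passed it and 3 lost it, all 3 for *Orm1* between WT tissues (0.46, 0.60 and 0.75 without WT liver 3, WT lung 1 and WT lung 2). Between WT tissues, DESeq2 shared 5 of edgeR's 6 calls, a loss that is not among these 3. The block changed no other call of a member. Depth limits *Saa1*, *Saa2* and *Orm2*, which had 0 to 24 reads per library.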
